A study of Mus musculus with 12 samples.

Results

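The genes described here are those of the ischemic mouse brain measured with and without a preceding injection of lactate. They were chosen as the rows of the deposited gene table that carry an Ensembl identifier and reach a level of 1 CPM (the count scaled to the library's total) or more in 4 or more of the 8 ischemic mice. This left 13169 of the 22036 Ensembl genes in the table, and of 31208 rows in all. The study asked how lactate that accumulates while the artery is blocked changes the ischemic brain. All mice were C57BL/6 mice of 8 weeks, with 4 mice in each of 3 groups and 12 in all. The vehicle-treated mice received 2 μL of saline and the lactate-treated mice 2 μL of lactate at 100 mmol/L, injected into a cerebral ventricle 24 h before the middle cerebral artery was occluded, and both groups were sampled at 6 h of ischemia. The methods describe sodium D-lactate, whereas the labels state lactate only, and nothing in the labels says that the sham mice were injected. The labels number the libraries as replicates and name no single animals, and each library is called a mouse here. The tissue is bulk brain, so fewer cells of a type and less RNA per cell cannot be told apart in any result below.

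Lactate is the end product of glycolysis, made from pyruvate by lactate dehydrogenase, and it moves between astrocytes and neurons through monocarboxylate transporters. It can also be attached to lysine residues of proteins, a modification called lactylation. In an ischemic brain, astrocytes and microglia, the resident macrophages, become reactive, unfolded proteins induce chaperones of the endoplasmic reticulum, and neurons that are strongly excited switch on immediate early genes.

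Total counts lay between 6815920 and 10677224 in the vehicle-treated and between 7395179 and 8624354 in the lactate-treated mice, so that a floor of 3 counts corresponded to 0.281 to 0.440 CPM over these 8 mice. These floors cover counting error only, as the reads carry no molecular identifiers. From mouse to mouse, edgeR estimated a biological coefficient of variation of 25.0%. Vehicle-treated mouse 1 stood apart from the others. It lay at -57.0 on the first principal component, which held 23.4% of the variance, while the other 7 mice lay between -4.38 and 13, and limma gave it a sample weight of 0.291 against 0.827 to 1.85 for the rest. Counts over all genes, and list counts that this mouse moves, are therefore also given without it. Vehicle-treated mouse 3 had 0.909% of its counts on mitochondrially encoded genes, against 1.98% to 2.06% in the other vehicle-treated and 1.13% to 1.32% in the lactate-treated mice.

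A gene was called when its unadjusted p in edgeR's quasi-likelihood test was under 0.05 and its fold change was at least 1.5, and the words rose and fell are used of called genes only. The study's methods give the same limits and describe a Benjamini-Hochberg adjustment just before them, without stating outright that the p in the limit is the adjusted one. On simulated data this rule also called unchanged genes, in a number of the same order as the calls here, so a single called gene cannot be told from chance by this rule alone. Over the whole table of 17419 tested rows, 3.76% were called higher and 2.47% lower with lactate. Among the 13169 genes with an Ensembl identifier, 199 (1.51%) rose and 362 (2.75%) fell, so that 35.5% of the called genes were higher with lactate. When the fit held only Ensembl genes, 243 rose and 288 fell, which is 45.8% higher. Without vehicle-treated mouse 1, 275 rose and 383 fell, and 141 of the 199 and 223 of the 362 genes were called again in the same direction. Without vehicle-treated mouse 4, 253 rose and 573 fell, and without lactate-treated mouse 1, 171 rose and 247 fell. The median log2 fold change of all 13169 genes was -0.06, against 0.16 for the 4250 tested rows without an Ensembl identifier. After Benjamini-Hochberg adjustment of edgeR's p over the whole table, 0 genes were higher and 1 gene, Rsrp1, was lower with lactate at an adjusted p under 0.05, while 351 genes were higher and 608 lower at an unadjusted p under 0.05. The other called genes are thus described by their levels and none of them passed the correction. DESeq2's Wald test gave 33 higher and 8 lower genes after adjustment and edgeR's exact test 22 and 6. All 4 lactate-treated mice lay above all 4 vehicle-treated mice for 285 genes (2.16%) and below them for 285 genes (2.16%), and this held for 111 of the 199 genes that rose and 116 of the 362 that fell. A change of at least 2-fold was seen for 68 of the genes that rose and 96 of those that fell, and 172 called genes (81 higher and 91 lower) were called in each of the 8 fits that left out 1 mouse. A gene named below was called in all 8 of these fits unless the text says otherwise. The plot of fold change against level shows where the genes named below lie.

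**Figure D1:**
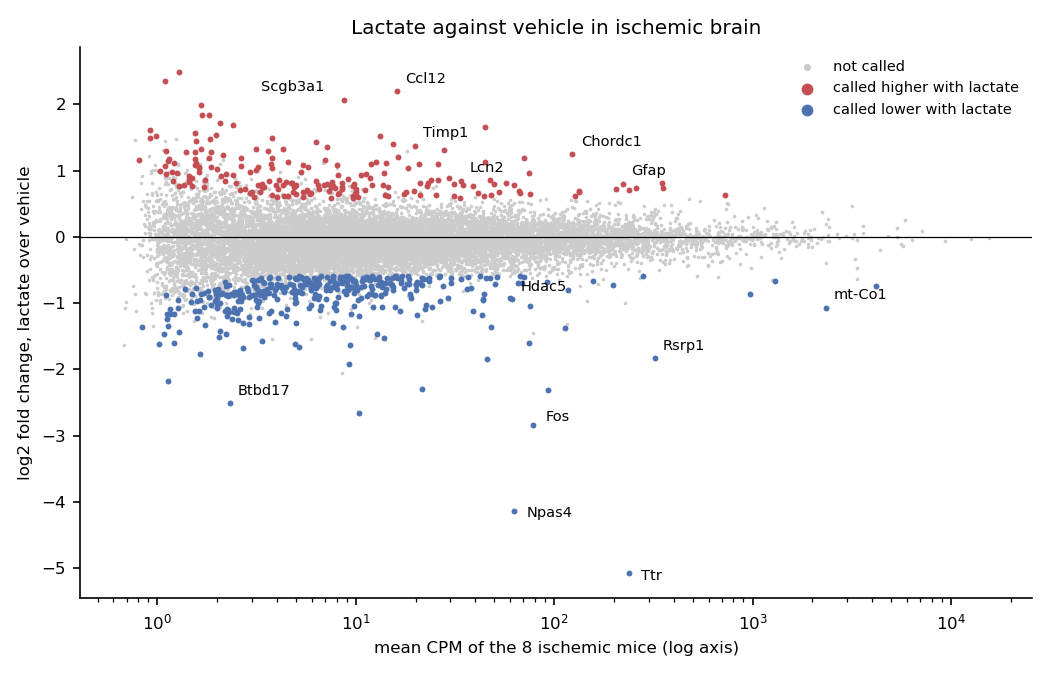
Fold change (lactate over vehicle, log2) against the mean CPM of the 8 ischemic mice on a log axis for the 13169 tested genes. Red and blue points are the 199 genes called higher and the 362 called lower with lactate, grey points were not called. Rsrp1, at a log2 fold change of -1.84, is the gene with an adjusted p under 0.05.

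Rsrp1 (ENSMUSG00000037266, chr4:134923592-134927671 in GENCODE M21 on GRCm38, plus strand) encodes a nuclear arginine- and serine-rich protein of the kind found among splicing factors. Its level was 334.9, 585.9, 442.8 and 634.1 CPM in vehicle-treated mice 1 to 4 and 98.3, 169, 143 and 157 CPM in lactate-treated mice 1 to 4. The highest lactate-treated mouse was below the lowest vehicle-treated mouse. Rsrp1 fell to 0.28 of the vehicle level (log2 fold change -1.84, standard error 0.21, 95% interval -2.30 to -1.37, edgeR adjusted p = 0.0328), and the log2 fold change lay between -1.98 and -1.70 with each mouse left out. With 1 mouse fewer the correction was passed by 1 lower gene without vehicle-treated mouse 1, by 4 without vehicle-treated mouse 3 and by 0 without any other single mouse (edgeR, Benjamini-Hochberg). With all 12 mice in one fit, Rsrp1 was at an unadjusted p of 0.000158 and no longer passed the correction, and its adjusted p reached 0.279 over the alternatives tried. The sham mice spread over the vehicle range and above it, at 334.7, 355.6, 1434 and 869 CPM, and every lactate-treated mouse was below all of them. As the single gene that passed the correction, its promoter is shown, 250 bases before to 50 after the start in RefSeq (GRCm38.p6), with none of the motifs searched below in it:
Rsrp1, chr4:134923375-134923674, plus strand: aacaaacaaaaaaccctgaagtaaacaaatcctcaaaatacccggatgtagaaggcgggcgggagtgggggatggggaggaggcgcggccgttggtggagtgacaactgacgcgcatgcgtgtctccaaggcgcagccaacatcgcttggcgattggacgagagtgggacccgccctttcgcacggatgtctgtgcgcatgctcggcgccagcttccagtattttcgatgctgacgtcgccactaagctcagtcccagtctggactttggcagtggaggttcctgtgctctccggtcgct

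The leading genes named next were chosen among called genes without overlap between the groups, so that the lack of overlap is no result of its own. Of the genes that rose with lactate, Ccl12 (chr11:82101845-82103400), a chemokine that attracts monocytes, had the smallest p. It was at 6.46, 2.85, 5.23 and 8.22 CPM in the vehicle-treated and 19.3, 21.6, 34.8 and 30.1 CPM in the lactate-treated mice, and between 1.85 and 2.99 CPM in sham mice. Every lactate-treated mouse was above all other mice, whereas vehicle-treated mouse 2 was within the sham range, and the level with lactate was 4.57 times that with vehicle (log2 fold change 2.19, standard error 0.30, edgeR adjusted p = 0.0978). Ccl2, a related monocyte chemokine, was not called, at 1.78, 5.31, 5.48 and 1.47 CPM with vehicle and 1.22, 3.95, 3.96 and 3.59 CPM with lactate (log2 fold change -0.15, standard error 0.47). Lcn2, the iron-carrier protein lipocalin 2 and a marker of reactive astrocytes, was at 24.8, 22.5, 21.5 and 27.3 CPM with vehicle and 45.8, 44.9, 43.6 and 41.3 CPM with lactate (log2 fold change 0.85, standard error 0.14, edgeR adjusted p = 0.265). In 3 of the sham mice there was no Lcn2 count and sham mouse 4 was at 0.247 CPM, below its floor of 0.370 CPM. Timp1, an inhibitor of metalloproteinases, was at 7.12, 8.94, 13.1 and 14.8 CPM with vehicle, 32.3, 22.9, 32.0 and 27.7 CPM with lactate and at most 0.863 CPM in sham mice (log2 fold change 1.38, standard error 0.24). For both genes every lactate-treated mouse was above every vehicle-treated mouse, and both levels in the ischemic mice were above those in sham mice. Timp1 lies inside Syn1 on the opposite strand, and Syn1 had a mean of 145 CPM with vehicle and 147 CPM with lactate.

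The other genes that rose with the smallest p had varied roles. Chordc1, a partner of the chaperone Hsp90, was at 41.6, 73.0, 93.2 and 83.2 CPM with vehicle and 143, 195, 181 and 177 CPM with lactate (log2 fold change 1.24, standard error 0.21), and the sham mice, at 86.4 to 124 CPM, were below all lactate-treated mice. Bst2, the interferon-induced tetherin, was at 2.81, 4.01, 2.86 and 3.81 CPM with vehicle and 6.49, 11, 8.83 and 10.3 CPM with lactate (log2 fold change 1.43, standard error 0.25). C4b, the complement component 4B, was at 1.87, 1.55, 2.49 and 1.91 CPM with vehicle and 4.6, 4.55, 5.27 and 7.88 CPM with lactate (log2 fold change 1.49, standard error 0.29). The vehicle-treated mice were near the sham level for Bst2, at 1.78 to 3.40 CPM in sham, and for C4b, at 1.45 to 2.22 CPM in sham, whereas every lactate-treated mouse was above all other mice. C4b has a near-identical copy in the mouse genome, so its count is uncertain. Blnk, an adaptor of immune receptors, rose from 6.68 ± 2.27 to 19.8 ± 6.28 CPM (SD, n = 4), and Eif4ebp1, an inhibitor of translation initiation, from 20.6 ± 4.44 to 38.6 ± 5.98 CPM (SD, n = 4). For both, the lowest lactate-treated mouse was above the highest vehicle-treated mouse. Acin1, a component of the exon junction complex, rose from 192 ± 19.5 to 325 ± 56.6 CPM and the potassium channel gene Kcna6 from 178 ± 17.3 to 296 ± 47.8 CPM. Dmkn, dermokine, rose from 21.2 ± 7.26 to 68.5 ± 27.0 CPM and Scgb3a1, a secretoglobin, from 3.35 ± 2.62 to 14.1 ± 3.76 CPM, which is 4.20-fold. The log2 fold change of Scgb3a1 was 2.07, and 1.78 to 2.67 with each mouse left out. Gm42674 rose from 2.84 ± 0.167 to 6.28 ± 0.981 CPM but lies over S100a4 and S100a3 on the same strand. Acin1 overlaps another annotated gene. The panels of leading genes draw 12 of the named genes by mouse.

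**Figure D2:**
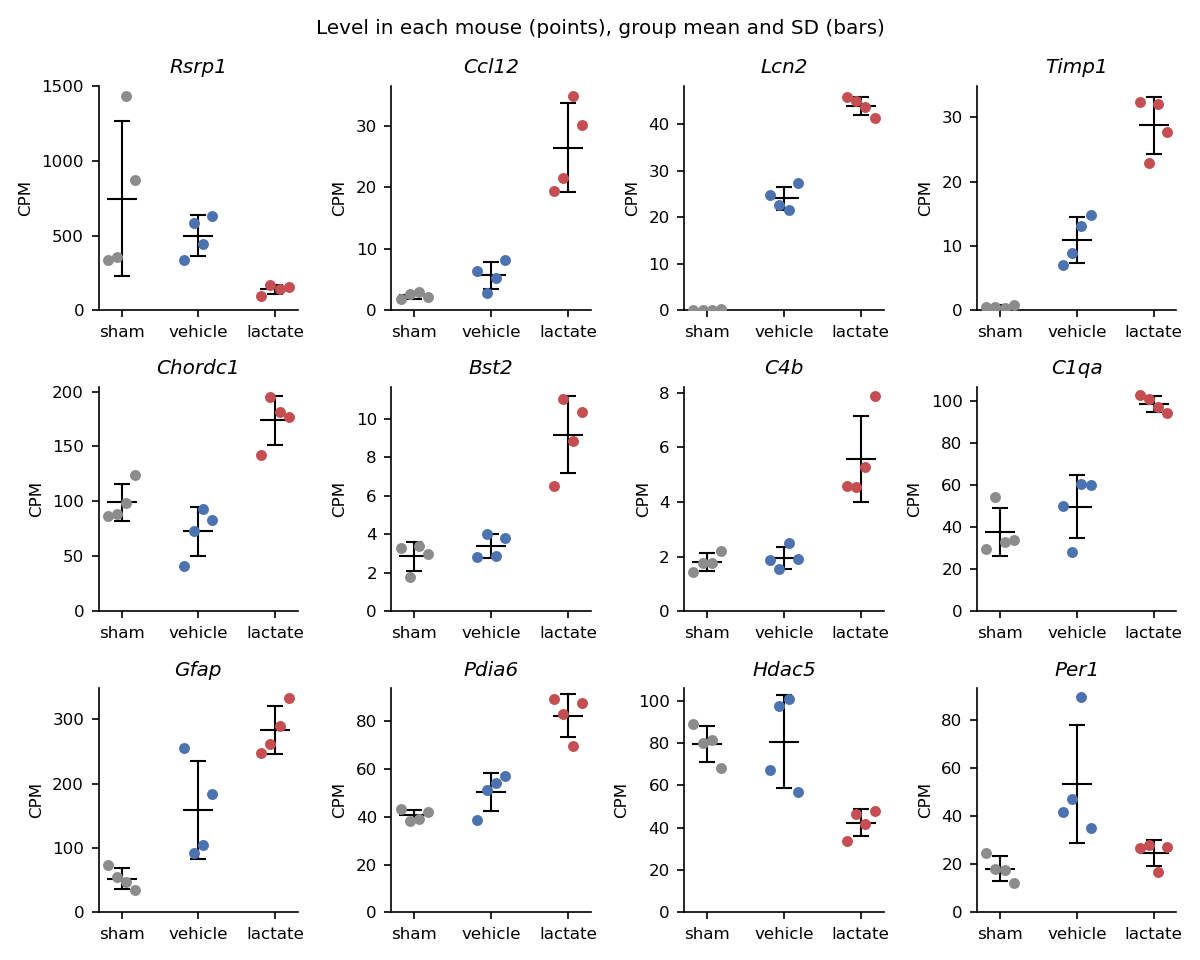
CPM of 12 genes in each sham (grey), vehicle-treated (blue) and lactate-treated (red) mouse, with the mean and SD of the 4 mice of a group as bars. In all panels but that of Gfap the lactate-treated mice do not overlap the vehicle-treated mice, which the choice of the genes required for all but C1qa and Pdia6.

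Besides Rsrp1, the genes that fell with the smallest p did not share one role. Hdac5, a class IIa histone deacetylase, was at 67.1, 97.6, 101 and 56.9 CPM with vehicle and 33.5, 46.6, 41.5 and 48.0 CPM with lactate (log2 fold change -0.94, standard error 0.20, edgeR adjusted p = 0.36). The sham mice, at 68.2 to 88.9 CPM, were within the vehicle range and above all lactate-treated mice. Per1, a clock gene that is also induced by activity and glucocorticoids, was at 41.9, 47.0, 89.5 and 35.2 CPM with vehicle and 26.6, 28.1, 16.9 and 27.2 CPM with lactate (log2 fold change -1.12, standard error 0.28), and at 12.2 to 24.9 CPM in sham. Slc16a11, a member of the monocarboxylate transporter family, was at 85.3, 72.9, 72.8 and 91.7 CPM with vehicle and 46.5, 57.4, 41 and 56.6 CPM with lactate (log2 fold change -0.70, standard error 0.16). Tjp1, the tight junction protein ZO-1, fell from 10.5 ± 1.81 to 5.70 ± 1.33 CPM (SD, n = 4). Dcun1d5, a factor of protein neddylation, fell from 12.4 ± 4.48 to 4.88 ± 1.03 CPM, Crispld2, a secreted protein, from 5.01 ± 0.714 to 2.26 ± 0.408 CPM, and Mtmr14, a lipid phosphatase, from 6.59 ± 1.09 to 3.33 ± 0.510 CPM. Rbmx, an RNA-binding protein, fell from 41.3 ± 7.08 to 26.8 ± 1.89 CPM, Klhdc4 from 26.1 ± 2.22 to 17.1 ± 1.53 CPM, Ice1, a subunit of the little elongation complex, from 12.5 ± 1.16 to 7.32 ± 1.56 CPM and Rccd1 from 7.11 ± 2.62 to 2.91 ± 1.44 CPM. Btbd17 had a large fold change with wide spread, at 3.65, 1.68, 9.09 and 1.32 CPM with vehicle and 0.264 to 1.08 CPM with lactate. Its log2 fold change was -2.51 (standard error 0.64), and -2.79 to -1.73 with each mouse left out. Without Rsrp1, these genes had adjusted p values of 0.355 to 0.481 by edgeR. Rbmx and Klhdc4 were not called without vehicle-treated mouse 3, at log2 fold changes of -0.52 and -0.58, and Klhdc4 and Rccd1 overlap genes on the opposite strand, whose reads cannot be told apart where the counting does not use strand. Crispld2 overlaps Gm20388 on the same strand, at a mean of about 13 CPM in both groups, so its count is uncertain under either way of counting.

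Gene lists for glial, stress and neuronal programs were then counted against these backgrounds of 1.51% higher and 2.75% lower. Of 28 tested genes of reactive astrocytes, 8 rose and 0 fell, with a median log2 fold change of 0.28. The study displayed this list on the same mice, so the count is not independent evidence of its direction. Among the 11 markers shared by reactive astrocytes, 5 rose. These were Lcn2 and Timp1, above, and Serpina3n, a protease inhibitor, at 18.3, 8.94, 12.4 and 23.8 CPM with vehicle and 29.3, 31.0, 32.0 and 67.6 CPM with lactate (log2 fold change 1.31, standard error 0.34), the intermediate filament Vim, at 15.0 to 18.7 CPM with vehicle and 21.2 to 33.9 CPM with lactate (0.81, standard error 0.18), and Gfap. Gfap, the astrocyte filament, was at 256, 91.7, 105 and 184 CPM with vehicle and 248, 262, 289 and 334 CPM with lactate (log2 fold change 0.80, standard error 0.28). Its groups overlapped through vehicle-treated mouse 1, and the log2 fold change was 1.15 without that mouse. Of the 11 A1 markers, 3 rose, namely Serping1, the inhibitor of C1 (0.69, standard error 0.25), Psmb8, an immunoproteasome subunit (0.79, standard error 0.31), and Ugt1a6a, a glucuronosyltransferase that shares exons with its gene cluster (0.89, standard error 0.38). Serping1 was called in 6, Psmb8 in 3 and Ugt1a6a in 3 of the 8 fits with 1 mouse left out. None of these 3 was called without vehicle-treated mouse 1 or without lactate-treated mouse 3, and 1 was called without vehicle-treated mouse 3. The whole list had 5 genes higher and 1 lower without vehicle-treated mouse 1, and 5 higher without lactate-treated mouse 3. Of the 6 tested A2 markers, 0 rose and 0 fell, and 1 fell without vehicle-treated mouse 1 or 4 or lactate-treated mouse 2. The 16 genes of astrocyte identity, such as the water channel Aqp4, had 0 called genes, or 1 lower without vehicle-treated mouse 4, and a median of -0.06, with a summed level of 11290 to 13278 CPM with vehicle and 11148 to 12995 CPM with lactate.

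Of 29 tested microglial genes, 5 rose and 0 fell, 26 had a positive log2 fold change and the median was 0.36. C1qa, a chain of the complement component C1q made by microglia, was at 50.2, 28.5, 60.5 and 60.3 CPM with vehicle and 103, 101, 97.2 and 94.3 CPM with lactate (log2 fold change 0.97, standard error 0.21). C1qb did not reach the fold change limit but also did not overlap, at 51.0 to 61.2 CPM with vehicle and 73.2 to 88.5 CPM with lactate (0.52, standard error 0.13). The Fc receptor genes Fcgr3 (0.67, standard error 0.17) and Fcgr2b (1.05, standard error 0.31) rose as well. Of the homeostatic markers, the purinergic receptor P2ry13 was at 0.749 to 1.24 CPM with vehicle and 1.74 to 2.40 CPM with lactate (1.08, standard error 0.32), and the fractalkine receptor Cx3cr1 at 9.93, 14.6, 9.34 and 9.54 CPM with vehicle and 15.3, 12.8, 22.5 and 17.7 CPM with lactate (0.63, standard error 0.23). P2ry13 was higher in all sham mice, at 3.95 to 5.46 CPM, and Cx3cr1 was at 17.0 to 32.0 CPM in sham mice, above all vehicle-treated mice and overlapping the lactate-treated mice. P2ry13 lies over Med12l on the opposite strand, which had a mean of 8.24 CPM with vehicle and 11.9 CPM with lactate, and the span of Cx3cr1 overlaps several genes, among them Csrnp1 on the same strand, at 13.8 and 7.34 CPM, so both counts are uncertain. Fcgr3 was not called without vehicle-treated mouse 2 (0.55), and Cx3cr1 not without lactate-treated mouse 3 or vehicle-treated mouse 3 or 4, with a range of 0.47 to 0.81. P2ry12, another homeostatic marker, was not called (-0.11, standard error 0.25), at 17.6 to 32.4 CPM with vehicle and 15.8 to 29.9 CPM with lactate. The summed level of the list was 1416 to 1869 CPM with vehicle and 2034 to 2234 CPM with lactate, without overlap. In sham mice it was 1462 to 1585 CPM. Most of the sum came from the pan-myeloid and phagocytic genes, at 1197 to 1560 CPM with vehicle and 1729 to 1859 CPM with lactate. The sums of the listed homeostatic genes overlapped, at 217 to 305 CPM with vehicle and 299 to 364 CPM with lactate. The number of genes of the whole list that rose was between 4 and 8 with each mouse left out, and 8 without lactate-treated mouse 1. Of 11 M1 and M2 markers found in the table under the symbols listed, 2 passed the filter on low counts and neither was called. The markers listed as Cd16 and Cd32 are the proteins encoded by Fcgr3 and Fcgr2b, which rose as given above. Il10 had no count in any of the 8 mice, which leaves levels under the floors given above undetectable. Of 13 tested complement genes, 4 rose and 0 fell, which were C1qa, C4b, Serping1 and C5ar1, the receptor of the fragment C5a, at 0.562, 2.33, 2.24 and 3.23 CPM with vehicle and 4.33, 4.31, 5.54 and 3.01 CPM with lactate (1.05, standard error 0.42). C5ar1 was not called without lactate-treated mouse 1 or 3 (0.71 to 1.34 with each mouse left out), and the count of 4 was 2 without lactate-treated mouse 3 and 3 without lactate-treated mouse 1 or vehicle-treated mouse 1. Neutrophil markers had 0 called genes of 6 tested, but 1 was called higher without vehicle-treated mouse 1 or 2 or lactate-treated mouse 2 and 1 lower without lactate-treated mouse 4, with a summed level of 19.4 to 84.7 CPM with vehicle and 31.7 to 57.9 CPM with lactate.

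Interferon-induced genes are switched on through the interferon-stimulated response element in their promoters. Of 29 tested, 5 rose and 0 fell, with a median log2 fold change of 0.29. Of the transcription factors in the list, Irf7 rose and was at 1.97, 4.79, 2.12 and 0.880 CPM with vehicle and 3.11, 6.71, 6.33 and 4.29 CPM with lactate (log2 fold change 1.04, standard error 0.43), with overlap. Of the targets, Bst2 rose as given above and the membrane protein Ifitm3 was at 13.3, 22.1, 15.2 and 17.0 CPM with vehicle and 23.8, 32.8, 36.5 and 30.8 CPM with lactate (0.86, standard error 0.20). The antiviral Ifit1 was at 3.47, 5.18, 4.86 and 3.52 CPM with vehicle and 4.06, 11, 11.3 and 12.3 CPM with lactate (1.17, standard error 0.32), and the ubiquitin-like modifier Isg15 at 2.81, 4.27, 3.61 and 3.52 CPM with vehicle and 3.25, 6.59, 9.10 and 9.28 CPM with lactate (0.97, standard error 0.32). Lactate-treated mouse 1 was the lowest of its group for all 5 genes and within the vehicle range for Ifit1, Isg15 and Irf7. Irf7 overlaps Phrf1 on the opposite strand, at a mean of 19.2 CPM with vehicle and 22.2 CPM with lactate. Irf7 was called in 3 of the 8 fits with 1 mouse left out, with a range of 0.78 to 1.57. Not all targets moved this way, as Gbp4 was not called, at 1.04 to 1.76 CPM with vehicle and 0.135 to 1.86 CPM with lactate (-0.82, standard error 0.54). However, it was called lower without lactate-treated mouse 4, with a range of -1.54 to -0.48. Gbp4 overlaps Gbp9 on the same strand, at a mean of 0.66 CPM with vehicle and 0.95 CPM with lactate, so its count is uncertain. With each mouse left out, 4 to 6 genes of the list rose, and 1 fell without lactate-treated mouse 4 or vehicle-treated mouse 1.

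The core of this element, GAAANNGAAA on either strand with overlapping matches counted, was in the RefSeq promoter window of 16 of the 26 listed genes that have one, and of 374 (3.64%) of the 10270 tested genes with a window. Windows of 4 genes that rose are shown with the core in capitals:
Ifit1, chr19:34640639-34640938, plus strand: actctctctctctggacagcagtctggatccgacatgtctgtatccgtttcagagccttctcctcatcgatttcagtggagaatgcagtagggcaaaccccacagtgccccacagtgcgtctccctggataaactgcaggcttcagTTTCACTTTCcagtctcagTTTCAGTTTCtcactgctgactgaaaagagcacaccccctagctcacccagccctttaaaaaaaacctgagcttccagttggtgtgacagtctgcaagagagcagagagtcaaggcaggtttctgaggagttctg
Isg15, chr4:156200769-156201068, minus strand: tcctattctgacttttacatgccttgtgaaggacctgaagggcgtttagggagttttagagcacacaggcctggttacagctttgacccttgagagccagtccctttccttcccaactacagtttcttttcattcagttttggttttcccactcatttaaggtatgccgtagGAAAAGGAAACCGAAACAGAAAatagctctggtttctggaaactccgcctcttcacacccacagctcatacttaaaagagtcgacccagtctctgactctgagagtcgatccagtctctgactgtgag
Bst2, chr8:71537423-71537722, minus strand: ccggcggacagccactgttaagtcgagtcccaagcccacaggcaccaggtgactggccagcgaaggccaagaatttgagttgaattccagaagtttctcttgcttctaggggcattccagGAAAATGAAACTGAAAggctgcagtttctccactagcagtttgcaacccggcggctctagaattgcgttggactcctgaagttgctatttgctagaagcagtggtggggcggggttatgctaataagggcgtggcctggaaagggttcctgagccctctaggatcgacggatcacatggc
Ifitm3, chr7:141010695-141010994, minus strand: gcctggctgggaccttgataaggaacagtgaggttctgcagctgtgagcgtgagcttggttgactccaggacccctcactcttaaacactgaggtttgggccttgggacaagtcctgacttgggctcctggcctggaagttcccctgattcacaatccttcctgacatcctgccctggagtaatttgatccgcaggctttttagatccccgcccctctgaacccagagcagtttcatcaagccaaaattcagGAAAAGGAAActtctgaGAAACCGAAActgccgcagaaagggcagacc

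Chaperones of the endoplasmic reticulum fold and modify secreted proteins and are induced when unfolded proteins build up. Of 15 tested, 4 rose and 0 fell, 14 had a positive log2 fold change and the median was 0.36. For 7 of them all lactate-treated mice were above all vehicle-treated mice, as was so for 2.16% of all tested genes. Pdia6, a protein disulfide isomerase, was at 38.8, 51.4, 54.0 and 56.9 CPM with vehicle and 89.1, 83.2, 69.5 and 87.5 CPM with lactate (log2 fold change 0.69, standard error 0.15), and its relative Pdia4 at 4.59, 7.51, 11 and 7.34 CPM with vehicle and 19.9, 13.2, 14.6 and 17.6 CPM with lactate (1.09, standard error 0.26). Sdf2l1, a partner of the chaperone BiP, was at 10, 8.16, 7.47 and 5.58 CPM with vehicle and 20.3, 16.8, 11.2 and 21.7 CPM with lactate (1.13, standard error 0.25). For these 3 genes all lactate-treated mice were above all vehicle-treated mice. Manf, a secreted stress-induced factor, was at 31.1, 35.9, 46.3 and 30.8 CPM with vehicle and 72.5, 62.8, 45.2 and 72.5 CPM with lactate (0.79, standard error 0.19), with lactate-treated mouse 3 inside the vehicle range. Hsp90b1 (0.52, standard error 0.11) and Pdia3 (0.55, standard error 0.14) did not overlap but stayed under 1.5-fold, at 158 to 176 CPM with vehicle and 229 to 273 CPM with lactate for Hsp90b1. Pdia3 was called without lactate-treated mouse 1 or vehicle-treated mouse 3, with a range of 0.45 to 0.61, and 4 or 5 of the chaperones rose with each mouse left out. Hspa5, which encodes BiP, was not called, at 166, 312, 291 and 283 CPM with vehicle and 305, 410, 280 and 312 CPM with lactate (0.30, standard error 0.19). The summed level of the 15 genes was 862 to 1062 CPM with vehicle, 1226 to 1491 CPM with lactate and 665 to 770 CPM in sham mice, without overlap between the groups. Pdia6 overlaps Atp6v1c2, whose reads cannot be told apart without strand, and Manf overlaps Rbm15b on the same strand, at a mean of 6.09 CPM with vehicle and 5.17 CPM with lactate. Of the 8 tested stress transcription factors and their targets, such as Ddit3 and Atf4, 0 rose and 0 fell, but 1 rose without vehicle-treated mouse 1 or lactate-treated mouse 1 and 1 fell without vehicle-treated mouse 1 or 4. The endoplasmic reticulum stress element, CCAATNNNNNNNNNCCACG on either strand, was in the window of 6 of 21 genes of this whole list and of 17 (0.166%) of the 10270 tested genes with a window. The 6 genes were Pdia6, which rose, and Calr, Creld2, Dnajc3, Hsp90b1 and Hspa5, which were not called, while Pdia4 and Sdf2l1, which rose, have no match in their windows. The element is in capitals in the windows of Pdia6 and Hsp90b1, the latter with the smallest p of the list:
Pdia6, chr12:17266339-17266638, plus strand: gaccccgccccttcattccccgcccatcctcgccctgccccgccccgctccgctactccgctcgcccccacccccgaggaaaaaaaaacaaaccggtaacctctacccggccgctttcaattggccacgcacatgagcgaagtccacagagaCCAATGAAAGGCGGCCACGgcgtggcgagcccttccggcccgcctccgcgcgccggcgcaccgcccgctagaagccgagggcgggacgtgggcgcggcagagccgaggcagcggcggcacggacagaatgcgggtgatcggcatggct
Hsp90b1, chr10:86705395-86705694, minus strand: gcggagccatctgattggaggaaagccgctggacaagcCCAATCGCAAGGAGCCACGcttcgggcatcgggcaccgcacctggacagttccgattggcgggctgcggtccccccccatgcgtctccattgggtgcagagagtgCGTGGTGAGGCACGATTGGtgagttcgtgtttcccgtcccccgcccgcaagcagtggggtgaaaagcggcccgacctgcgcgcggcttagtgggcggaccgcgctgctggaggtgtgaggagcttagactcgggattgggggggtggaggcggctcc

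**Figure D3:**
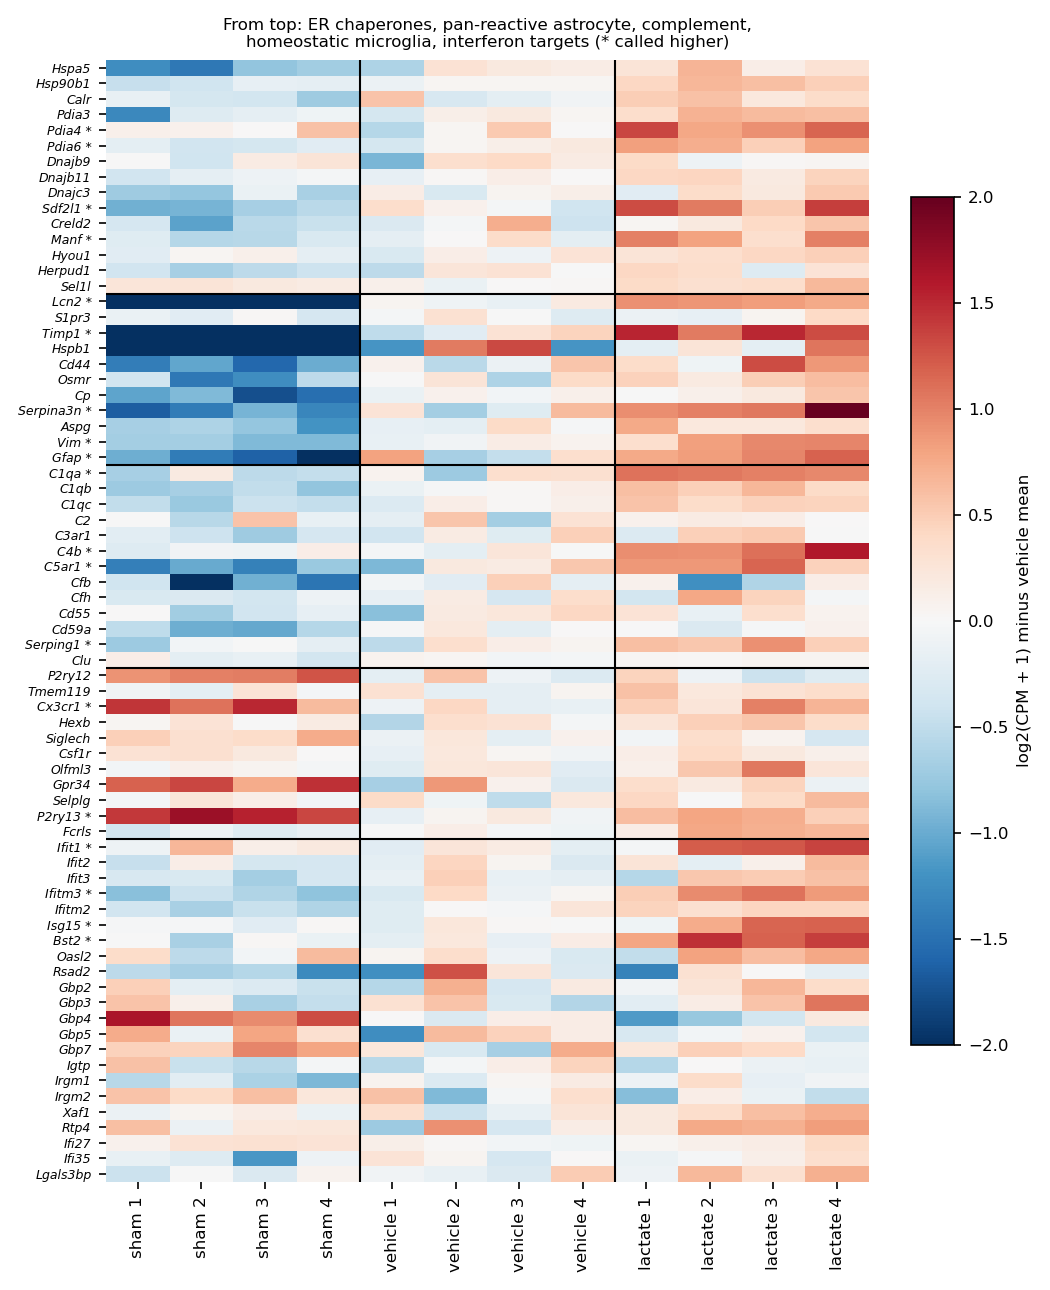
Level of 5 groups of genes in each mouse, as log2(CPM + 1) minus the mean of the 4 vehicle-treated mice, with a star for each gene called higher with lactate. Of the 15 chaperones at the top, 7 are redder in all 4 lactate-treated mice than in any vehicle-treated mouse, and the homeostatic microglial gene P2ry13 is highest in the sham mice.

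Of 16 tested heat shock genes of the cytosol and mitochondria, Hsph1 alone rose. It was at 462, 475.0, 678 and 645 CPM with vehicle and 533, 1497, 837 and 696 CPM with lactate (0.64, standard error 0.26), with overlap, and was not called without vehicle-treated mouse 1 or 2 or lactate-treated mouse 2, with a range of 0.27 to 0.81. Without vehicle-treated mouse 4, 3 genes of the list rose, and without lactate-treated mouse 2, 2 fell. Chordc1, above, is outside this list. The core of the heat shock element, GAANNTTCNNGAA on either strand, was in the window of 3 of the 12 listed genes that have one, Hsph1 among them, of Chordc1, and of 60 (0.584%) of the 10270 genes. It is in capitals in these 2 windows, with overlapping matches in that of Chordc1:
Chordc1, chr9:18292017-18292316, plus strand: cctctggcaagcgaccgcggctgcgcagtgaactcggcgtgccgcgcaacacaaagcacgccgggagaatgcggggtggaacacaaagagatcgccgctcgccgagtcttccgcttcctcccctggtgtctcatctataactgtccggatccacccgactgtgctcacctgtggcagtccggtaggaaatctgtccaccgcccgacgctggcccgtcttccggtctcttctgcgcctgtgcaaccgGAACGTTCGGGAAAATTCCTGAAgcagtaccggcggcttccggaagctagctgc
Hsph1, chr5:149636266-149636565, minus strand: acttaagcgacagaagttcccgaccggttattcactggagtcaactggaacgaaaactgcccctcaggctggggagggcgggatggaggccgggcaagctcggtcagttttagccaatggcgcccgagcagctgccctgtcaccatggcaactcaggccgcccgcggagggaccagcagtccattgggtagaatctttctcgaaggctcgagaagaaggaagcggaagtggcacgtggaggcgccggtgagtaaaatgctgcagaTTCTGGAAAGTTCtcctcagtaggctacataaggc

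Antioxidant genes had 2 that rose of 11 tested targets of Nrf2. Hmox1, heme oxygenase 1, was at 4.68, 6.22, 9.83 and 8.51 CPM with vehicle and 12.4, 15.1, 12.1 and 16.2 CPM with lactate (0.93, standard error 0.24), without overlap. Slc7a11, the cystine transporter, was at 8.05, 21.9, 16.8 and 26.7 CPM with vehicle and 23, 43.5, 39.6 and 27.9 CPM with lactate (0.86, standard error 0.32), and was not called without lactate-treated mouse 2 or 3 (0.61 to 1.09). Tfrc, the transferrin receptor, fell (-0.63, standard error 0.22) and was called in 4 of the 8 fits with 1 mouse left out. Of 25 tested cell death genes, Pycard, the inflammasome adaptor, rose, at 2.81, 2.72, 1.24 and 1.32 CPM with vehicle and 3.38, 3.59, 5.14 and 4.75 CPM with lactate (1.01, standard error 0.34). The necroptosis kinase Ripk3 rose from a level near the floor, at 0 to 1.12 CPM with vehicle and 0.812 to 2.03 CPM with lactate (1.53, standard error 0.68), and was called in 3 of the 8 fits with 1 mouse left out. Gadd45g, a stress-induced gene that activity also induces, fell (-1.38, standard error 0.56) and was called in 4 of the 8 fits. The caspase genes tested were not called. The list had 1 higher and 3 lower genes without vehicle-treated mouse 1 or lactate-treated mouse 2, and 0 lower without lactate-treated mouse 3 or 4 or vehicle-treated mouse 3.

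Immediate early genes are switched on within minutes of strong stimulation. Of 29 tested, 11 fell and 0 rose, all 29 had a negative log2 fold change, and the median was -1.17, but the size of the change depended on a few mice. The transcription factor Fos was at 10.1, 138, 371 and 31.5 CPM in vehicle-treated mice 1 to 4, and at 4.87, 53.3, 10.7 and 8.12 CPM in lactate-treated mice 1 to 4 (log2 fold change -2.84, standard error 0.98). Npas4, a factor induced by calcium entry into neurons, was at 2.44, 65.3, 400.1 and 9.10 CPM with vehicle and 3.11, 18.2, 1.45 and 4.06 CPM with lactate (-4.14, standard error 1.28). The orphan receptor Nr4a1 was at 28.1, 166, 389.5 and 31.8 CPM with vehicle and 21.9, 61.3, 17.5 and 24.1 CPM with lactate (-2.31, standard error 0.74). In each of these genes vehicle-treated mice 2 and 3 were the highest, vehicle-treated mice 1 and 4 lay within the range of the lactate-treated mice, and lactate-treated mouse 2 was the highest of its group. The groups overlapped for all 29 genes. The other transcription factors that fell were Junb (-1.84, standard error 0.66), Jun (-1.36, standard error 0.58), Egr1 (-1.60, standard error 0.68), Egr4 (-2.66, standard error 1.05) and Nr4a3 (-1.61, standard error 0.56). Junb overlaps Prdx2 on the opposite strand, at a mean of 669.9 CPM in both groups. The antiproliferative gene Btg2 (-1.04, standard error 0.46) and the kinase Sik1 (-1.17, standard error 0.44) fell as well. With 1 mouse left out, Egr1 and Btg2 were called in 3, Jun and Egr4 in 4 and Sik1 in 5 of the 8 fits, and the log2 fold change of Btg2 lay between -1.26 and -0.36. Other activity-induced genes were not called, among them Fosb (-1.32, standard error 1.04), Arc (-1.45, standard error 0.82) and the growth factor Bdnf (-0.53, standard error 0.56), for which lactate-treated mouse 2 was at the level of the high vehicle-treated mice, at 221 CPM for Fosb and 251 CPM for Bdnf. Without lactate-treated mouse 2 these 3 genes were called, at -3.46 for Fosb, -2.81 for Arc and -1.53 for Bdnf, and Arc was also called without vehicle-treated mouse 1. Over the 30 listed genes, which include the untested Fosl1, the summed level was 510, 1650.3, 3503 and 528 CPM in the vehicle-treated mice. It was 358, 1352 (mouse 2), 404 and 376 CPM in the lactate-treated mice and 555 to 836 CPM in sham mice. Without vehicle-treated mouse 3, Dusp1 alone was called (1 of the 29 genes), and the log2 fold changes of Fos, Npas4 and Nr4a1 were -1.65, -1.94 and -1.29. The number called was 20 without vehicle-treated mouse 1, 8 without vehicle-treated mouse 2, 16 without vehicle-treated mouse 4, 7 without lactate-treated mouse 1, 22 without lactate-treated mouse 2, 6 without lactate-treated mouse 3 and 7 without lactate-treated mouse 4.

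Dusp1, a phosphatase that inactivates MAP kinases, was at 8.62, 39.9, 88.5 and 6.46 CPM with vehicle and 5.95, 8.86, 6.33 and 8.12 CPM with lactate (-2.30, standard error 0.67), and its log2 fold change lay between -2.64 and -1.34 with each mouse left out. Its annotated span overlaps Ergic1. The cyclic AMP response element, TGACGTCA, a palindrome bound by CREB, was in the windows of Dusp1 and Btg2 among 23 immediate early genes with a window, of 20 (7.07%) of the 283 genes that fell and have a window, of 3 (1.94%) of the 155 that rose and have one, and of 361 (3.52%) of the 10270 tested genes with one. The AP-1 element, TGACTCA or its reverse complement, was in a window of 0 of the 23 immediate early genes and of 465 (4.53%) of the 10270, and the E-box, CACGTG, of 5 of the 23 and of 1202 (11.7%) of the 10270. The window of Dusp1 is shown with the cyclic AMP response element in capitals:
Dusp1, chr17:26508423-26508722, minus strand: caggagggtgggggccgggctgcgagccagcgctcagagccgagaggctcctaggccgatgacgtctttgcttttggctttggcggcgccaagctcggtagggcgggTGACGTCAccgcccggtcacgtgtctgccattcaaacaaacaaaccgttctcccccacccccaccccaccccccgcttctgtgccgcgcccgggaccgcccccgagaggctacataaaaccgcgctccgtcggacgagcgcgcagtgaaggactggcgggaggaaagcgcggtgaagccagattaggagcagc

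**Figure D4:**
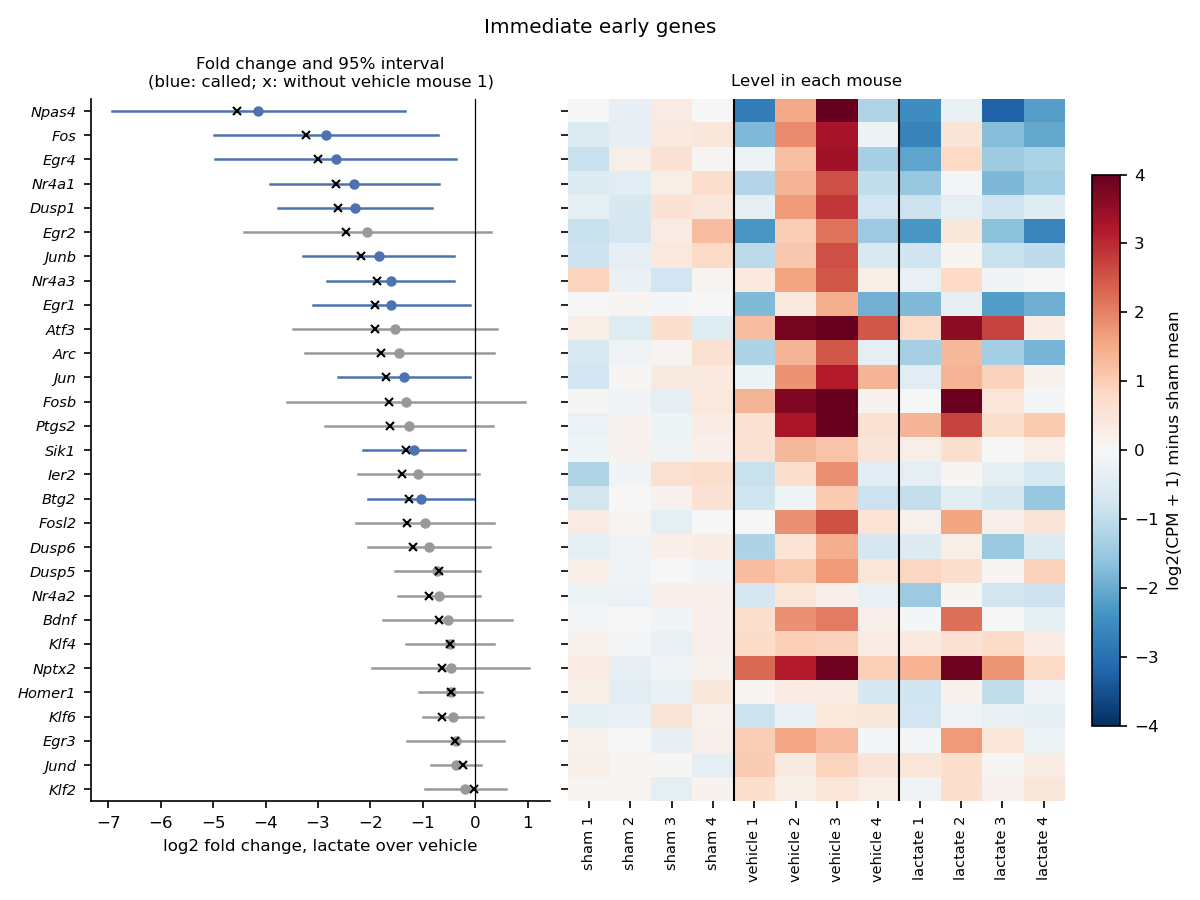
Left, log2 fold change (lactate over vehicle) with its 95% interval for 29 immediate early genes, blue where called, and crosses for the values without vehicle-treated mouse 1. Right, the level of the same genes in each mouse as log2(CPM + 1) minus the sham mean, where vehicle-treated mice 2 and 3 and lactate-treated mouse 2 are the reddest columns.

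Genes of splicing factors were counted because of Rsrp1, which is a member of the list, so the count is not independent of that result. Of 48 tested, 5 fell and 0 rose, with a median of -0.19. Beside Rsrp1 these were Clk1, a kinase of splicing factors, at 19.1, 32.8, 30.4 and 19.1 CPM with vehicle and 14.3, 16.3, 14.5 and 13.9 CPM with lactate (-0.80, standard error 0.21), the SR proteins Srsf1 (-0.86, standard error 0.26) and Srsf12 (-0.74, standard error 0.24), and the cold-inducible RNA-binding protein Cirbp (-0.59, standard error 0.18). The groups did not overlap for Clk1, Srsf1 and Cirbp, at 12 to 15.7 CPM with lactate and 16.3 to 36.1 CPM with vehicle for Srsf1. Srsf1 was not called without vehicle-treated mouse 1 (-0.58), Srsf12 not without lactate-treated mouse 1 (-0.58), and Cirbp was called in 4 of the 8 fits with 1 mouse left out, while 4 to 7 genes of the list fell in each.

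Of the 13 mitochondrially encoded subunits of the respiratory chain, 3 fell and 12 had a negative log2 fold change. mt-Co1, of complex IV, was at 4018, 3542, 1128 and 3906 CPM with vehicle and 1552, 1740.3, 1572 and 1257 CPM with lactate (-1.07, standard error 0.31). mt-Nd1, of complex I, was at 1233, 1467, 495 and 1786 CPM with vehicle and 672, 713, 705 and 700.5 CPM with lactate (-0.86, standard error 0.28), and mt-Nd4 fell by 0.74 on the log2 scale (standard error 0.29) and was called in 4 of the 8 fits with 1 mouse left out. In these genes vehicle-treated mouse 3 was below all lactate-treated mice and the other 3 vehicle-treated mice above them. Without vehicle-treated mouse 3, 5 of the 13 fell, and 2 fell without vehicle-treated mouse 1, 2 or 4 or lactate-treated mouse 4. The sham mice were spread widely as well, from 1480.0 to 3948 CPM for mt-Co1.

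Genes that make and move lactate were counted next. Of the 7 tested genes of lactate handling, 0 rose and 0 fell. Ldha was at 781, 883, 902 and 970.4 CPM with vehicle and 1098, 1073, 887 and 803 CPM with lactate (0.11, standard error 0.12, 95% interval -0.16 to 0.37), and Ldhb at 308 to 411 CPM with vehicle and 315 to 389.9 CPM with lactate (-0.07, standard error 0.12). The transporter genes Slc16a1 (-0.43, standard error 0.30) and Slc16a7 (-0.44, standard error 0.25), the latter encoding the neuronal transporter MCT2, were not called, but Slc16a7 was called lower without lactate-treated mouse 2, with a range of -0.66 to -0.32 over the fits with 1 mouse left out. Slc16a11, above, is of the same family. The lactate receptor genes Hcar1 and Gpr132 did not pass the filter on low counts. Of 24 tested glycolytic genes 0 rose and 0 fell, with a median of -0.03, and 1 fell without lactate-treated mouse 4 or vehicle-treated mouse 2. Of 24 tested genes of lysine acylation, Hdac5 fell and 0 rose. Ep300, which encodes the acyltransferase p300, was at 5.90, 6.09, 2.99 and 4.11 CPM with vehicle and 2.84, 3.23, 6.20 and 4.75 CPM with lactate (-0.20, standard error 0.32), and the delactylase gene Hdac3 at 19.7 to 24.6 CPM with vehicle and 18 to 20.7 CPM with lactate (-0.24, standard error 0.15). Of 23 histone methyltransferase genes, Setd1b fell (-0.90, standard error 0.35) and was called in 4 of the 8 fits with 1 mouse left out. The count of this list was 3 lower without vehicle-treated mouse 4, 2 without vehicle-treated mouse 2 and 0 without lactate-treated mouse 3 or 4 or vehicle-treated mouse 1.

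In the remaining lists few genes were called. Of 17 tested clock genes Per1 and Ciart fell, Ciart from 21.2, 27.1, 49.7 and 22.7 CPM with vehicle to 15.3, 12.3, 12.7 and 19.4 CPM with lactate (-1.03, standard error 0.27). Of 27 tested genes of Notch signaling, the target Hes5 (-1.28, standard error 0.58), which was called in 2 of the 8 fits with 1 mouse left out, and Hes6 (-0.71, standard error 0.23) fell. Of 30 cytokine and NF-kappa B genes, Ccl12 rose and Socs2 (-0.62, standard error 0.25) and Nfkbiz (-1.07, standard error 0.42), both feedback regulators, fell, and they were called in 5 and 6 of the 8 fits. Of 22 genes of antigen presentation Psmb8 rose, of 20 hypoxia genes Hmox1 rose, of 16 genes of matrix remodelling Timp1 rose, and of 12 glucocorticoid targets Per1 fell. Of 36 glutamate and GABA receptor genes Grik2 fell (-0.76, standard error 0.29) and 30 had a negative log2 fold change, with a median of -0.15, which was -0.05 without vehicle-treated mouse 1, and Grik2 was called in 5 of the 8 fits. No gene was called in the lists of neuronal identity (16 tested), presynaptic release (20), postsynaptic scaffold (21), voltage-gated channels (32), ribosomal proteins (33), proteasome (25), lysosome (21) or cholesterol synthesis (18). Kcna6, above, is outside the channel list. Of the 21 postsynaptic genes 18 had a negative log2 fold change, with a median of -0.24, or -0.04 without vehicle-treated mouse 1. A negative value was found for 17 of the 18 cholesterol genes, with a median of -0.25, or -0.26 without that mouse. Of the 21 lysosomal genes, 5 had a negative value. Without vehicle-treated mouse 1, 4 of the channel genes rose and their median log2 fold change moved from -0.04 to 0.26, 1 neuronal gene rose and 2 cholesterol genes fell. Without that mouse the lists above had 1 higher and 3 lower clock genes, 1 higher and 1 lower Notch gene, 1 higher and 3 lower cytokine genes, 0 higher and 1 lower antigen presentation gene, 1 higher and 2 lower glucocorticoid targets and 2 higher and 2 lower receptor genes. Without vehicle-treated mouse 4, 2 postsynaptic genes fell, 1 channel gene rose and 1 fell, 1 cholesterol gene fell, and 2 hypoxia genes rose and 1 fell. A postsynaptic gene fell without lactate-treated mouse 2 or 4 or vehicle-treated mouse 3, a lysosomal gene without lactate-treated mouse 2 and a hypoxia gene without lactate-treated mouse 4 or vehicle-treated mouse 2. The chart of called shares sets these lists side by side.

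**Figure D5:**
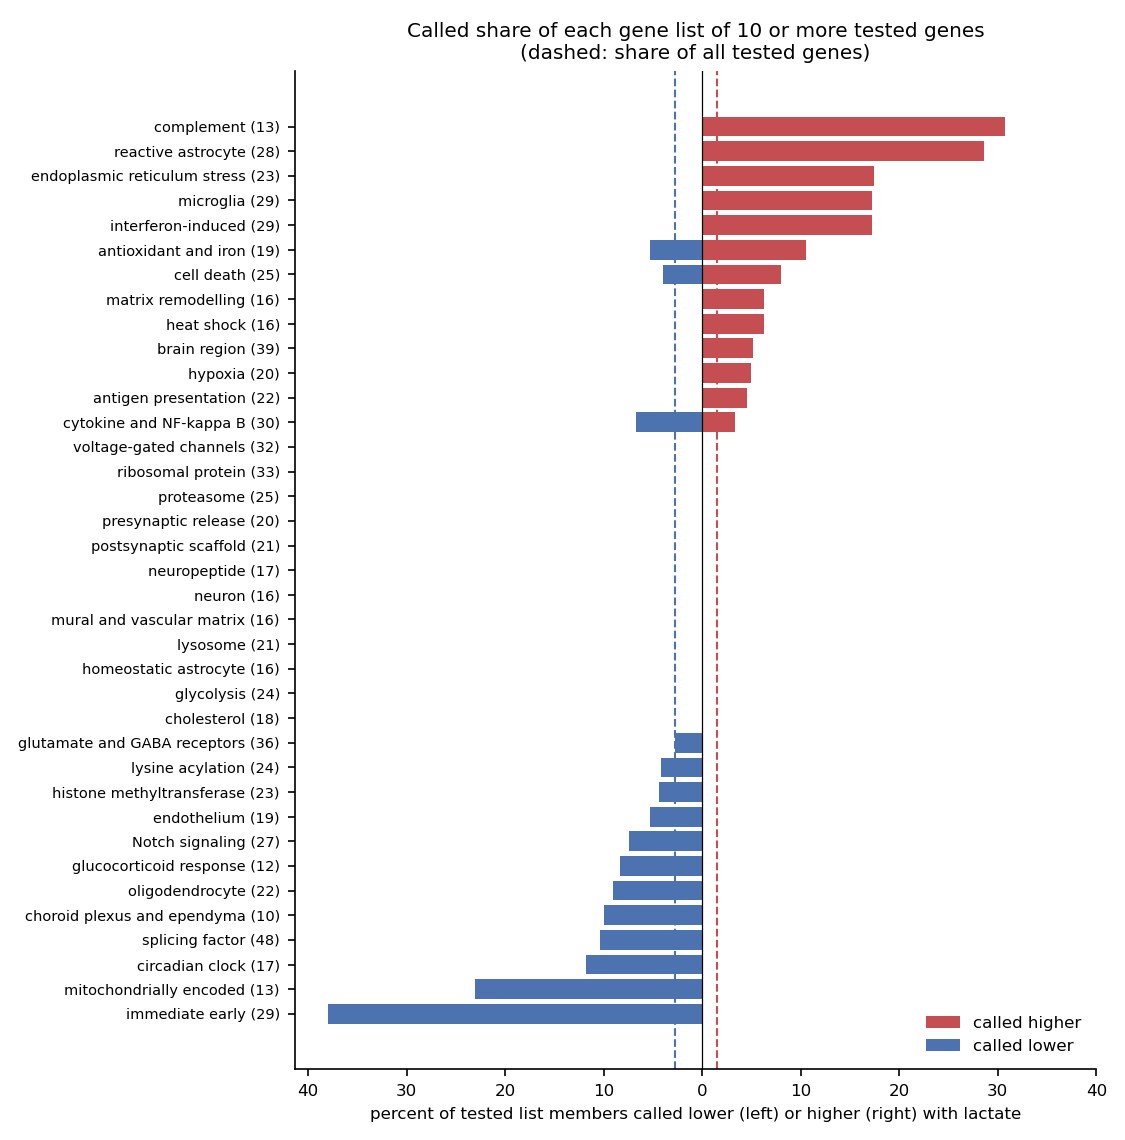
Percent of the tested members of each list that were called lower (left, blue) or higher (right, red) with lactate, with the number tested in parentheses. Dashed lines mark the shares of all 13169 genes, 1.51% higher and 2.75% lower, and 11 of the 29 immediate early genes fell. Without vehicle-treated mouse 3 it was 1 of the 29, against 5 of 13 mitochondrially encoded genes.

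Markers of cell types and regions varied among the mice. The 15 striatal markers summed to 1194, 564, 1389 and 595 CPM in the vehicle-treated mice and to 1323, 1112, 1214 and 1352 CPM in the lactate-treated mice, and 2 of them rose, Ppp1r1b (0.82, standard error 0.33) and Adora2a (0.82, standard error 0.37), which were called in 4 and 2 of the 8 fits with 1 mouse left out, while 0 to 6 genes of the list rose in each, 6 of them without vehicle-treated mouse 3. The sums of vehicle-treated mice 2 and 4 were below all others, and the part of this in other results was not tested. Of 15 myelin genes Mog (-0.66, standard error 0.22) and Opalin (-0.77, standard error 0.27) fell, but neither was called without vehicle-treated mouse 2 (-0.57 and -0.43), nor Mog without vehicle-treated mouse 1 (-0.49), while the whole set summed to 5724 to 10781 CPM with vehicle and 9081 to 10124 CPM with lactate. Of 19 genes of the blood-brain barrier Tjp1 fell, and 3 fell without vehicle-treated mouse 1 and 2 without lactate-treated mouse 3. Ttr, the main transcript of the choroid plexus, was at 13.8, 1817, 12 and 2.64 CPM with vehicle and 16.2, 7.78, 15.4 and 16 CPM with lactate, so that its log2 fold change of -5.08 came from vehicle-treated mouse 2 and was 0.51 without it. Of 12 choroid plexus markers only 3 passed the filter on low counts. Gabra6, a marker of the cerebellum, had no count in any of the 8 mice.

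Called genes were not spread evenly over gene properties. In the quintile of genes with the lowest level, 2.62% rose and 4.14% fell, against 0.683% and 0.873% in the quintile with the highest level. In the quintile with the shortest annotated transcripts 2.51% rose and 2.43% fell, and in the quintile with the longest 0.646% rose and 3.30% fell. Without vehicle-treated mouse 1 the latter shares were 1.90% and 2.70%. That mouse had 11.7% of its counts on the longest quintile, against 9.55% to 9.73% in the other vehicle-treated and 9.32% to 10.2% in the lactate-treated mice.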

How the data were processed

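RNA of brain tissue from 12 mice was read as nanopore cDNA after 14 PCR cycles. Per the study's methods, the authors kept reads of at least 500 bp and a quality of 7 and aligned them with minimap2. They built transcripts with pinfish and checked these against the known annotation with gffcompare. The submitters' processing notes name GRCm38 and DESeq 1.10.1, and how reads were assigned to genes, and whether by strand, is not given in the sources used here. The authors deposited whole-number counts per gene, as in the columns of each mouse, and these were used as deposited. The deposited CPM columns, which the authors scaled to the library total, were not used, since CPM was computed here from the counts. The deposited columns with the authors' own fold changes and p-values were not used, and 0 columns of single mice were left out. A total of 4 lines that name no gene were left out, and 27 symbols that a spreadsheet had turned into dates were restored by identifier. Coordinates are from GENCODE M21 (GRCm38), where 13167 of the 13169 genes were found, and promoters are from RefSeq (GRCm38.p6), in which 10270 tested genes have a window.

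Lactate-treated and vehicle-treated mice were compared with edgeR 4.0.16 (R 4.3.3), with TMM scaling (factors of 0.974 to 1.01), a filter of 1 CPM in 4 of the 8 mice, its quasi-likelihood test over all 17419 rows left and Benjamini-Hochberg adjustment over the same rows. A gene was called at p under 0.05 and 1.5-fold. CPM values are untransformed by TMM, and standard errors are on the log2 scale. Named genes were the 12 higher and 12 lower called genes without overlap between groups with the smallest p, the 4 of each direction with the largest fold change at a mean of at least 5 CPM, and the 4 members of each list role with the smallest p, beside the defining genes of a list. Ccl2, Gbp4 and P2ry12 were shown beside their relatives after their values were seen. The members and the lists were chosen with earlier results of these data known. An item left out of the lists is not reported here. The test was run on simulated data with known changes before it was used. Nothing in the labels says more of replicates than that they are separate libraries of a group, so p-values measure the spread between these libraries. Alternatives were DESeq2 1.42.0, limma 3.58.1 (voom with quality weights), edgeR's exact test, other scalings, filters and fold limits, all 12 mice in one fit, a replicate block and each mouse left out. The newer quasi-likelihood method of edgeR was added after the data were seen.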

Additional observations from a re-analysis of the deposited data

Results flagged for a closer look

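In each group of 4 mice, a mouse was singled out when its gap to the nearest other mouse, divided by the range of the group, was over the 95% critical value of Dixon for 4 values. This was so in 28 of the 297 groups tested, where chance gives about 1 in 20 for independent normal values. The groups share mice and hold genes named for their results, so their number cannot be read against that rate. Lactate-treated mouse 2 stood above the other lactate-treated mice in 9 activity-induced genes, with 53.3 CPM of Fos, 32.7 CPM of Junb, 18.2 CPM of Npas4, 61.3 CPM of Nr4a1, 76.5 CPM of Egr1, 8.50 CPM of Egr4, 221 CPM of Fosb, 119 CPM of Arc and 251 CPM of Bdnf, and below them in Ttr, with 7.78 CPM. Among vehicle-treated mice, mouse 3 stood apart for Npas4 (400.1 CPM), Dcun1d5 (19 CPM), mt-Co1 (1128 CPM) and mt-Nd4 (2010.0 CPM), mouse 2 for Ttr (1817 CPM), Kcna6 (153 CPM), Psmb8 (3.5 CPM) and Cx3cr1 (14.6 CPM), and mouse 1 for Hsp90b1 (158 CPM). Among the other lactate-treated mice, Per1 was low in mouse 3 (16.9 CPM), Serpina3n high in mouse 4 (67.6 CPM), and Ifit1 (4.06 CPM) and Ccl2 (1.22 CPM) low in mouse 1. In sham mice, Lcn2 (0.247 CPM) and Pdia4 (11.5 CPM) stood apart in mouse 4, Slc7a11 (18.3 CPM) and Ccl2 (0 CPM) in mouse 2 and Ripk3 (1.09 CPM) in mouse 3. The values of Lcn2 and Ccl2 in sham mice are all under the floor of 3 counts and show no difference between these mice.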

How the results depend on the processing

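The 199 genes that rose became 303 with limma voom and quality weights, 68 at a fold change limit of 2 and 351 without one, and 162 to 275 with each mouse left out. The 362 genes that fell became 580 without a filter on low counts, 96 at a fold change limit of 2 and 608 without one, and 247 to 573 with each mouse left out. After Benjamini-Hochberg adjustment, the 0 higher and 1 lower genes of edgeR's quasi-likelihood test became 33 and 8 under the Wald test of DESeq2, and 22 and 6 under the exact test of edgeR. There was 1 higher and 0 lower with all 12 mice in one fit, where Rsrp1 did not pass, and 1 higher with limma voom, without a filter or with only Ensembl genes. With each mouse left out the adjusted count was 0 higher and 0 to 4 lower. Of the 83 called genes given with values, 44 were called under each of the 19 alternatives that gave a value and 1, Ttr, changed sign, with -5.49 to 0.51 over the fits leaving out 1 mouse. Of the genes not called, Ep300 was at 0.010 with limma voom, Ccl2 at -0.39 to 0.14 and P2ry12 at -0.33 to 0.13 with each mouse left out. The cause of these moves was not tested. Replicate numbers are shared by the groups, nothing in the labels ties the same number to one animal, and deviations of mice with the same number had correlations of -0.129 to 0.045, so the numbers were not taken as pairs. With the replicate block 199 genes rose and 299 fell, with 0 and 1 after adjustment, and no mouse correlated best with its own number. The older quasi-likelihood method had been planned as an alternative. It is the default of this edgeR version, so it was the main fit and gave no value of its own. Genes under about 1 CPM were not tested, so a change in a scarce transcript such as that of a cytokine was not detectable at this depth.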
